A study of Mus musculus with 15 samples.

Results

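The genes described here encode the oxidative phosphorylation system, the chain of complexes I to IV and the ATP synthase, complex V, in the inner mitochondrial membrane. Members were chosen by symbol: those that begin with Nduf, Uqcr, Atp5, Cox4 to Cox8, mt-Nd, mt-Co, mt-Atp or mt-Cytb, and Sdha to Sdhd, without pseudogene and antisense symbols. This gave 110 of the 54390 genes in the count tables, of which 97 lie in the nuclear genome on 19 chromosomes and 13 in the mitochondrial genome. The nuclear members comprise 47 of complex I, 4 of complex II, 8 of complex III, 21 of complex IV and 17 of complex V. The Nduf symbols also bring in 8 Ndufaf genes, whose products help to assemble complex I and are not part of it. Ndufa4 was counted with complex IV, where its product resides.

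Complexes I, III and IV pass electrons from NADH and ubiquinol to oxygen and pump protons, complex II feeds electrons from succinate without pumping, and complex V uses the proton gradient to make ATP. Complex II is encoded by the nucleus alone, while the other complexes need core subunits from mitochondrial DNA together with nuclear subunits that are imported. In macrophages the balance between this pathway and glycolysis is known to shift with activation and with lipid handling.

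RNA was sequenced from BV2 cells, an immortalized mouse microglial line used here as a macrophage model. Trem2 encodes a lipid-sensing receptor of macrophages and microglia. The groups were Trem2WT nonfoamy (n = 4), Trem2WT foamy (n = 4), Trem2KO nonfoamy (n = 3) and Trem2KO foamy (n = 4). Foamy cells had been given 20 μg/ml cholesterol overnight, and nonfoamy cells received none. Trem2KO cells were derived with a guide RNA from a Cas9-expressing BV2 clone by antibiotic selection and limiting dilution, so that the deletion, the selection and the choice of clone cannot be told apart. Whether the Trem2KO libraries came from 1 clone or several is not given in the sources used here, and every genotype comparison may rest on a single clone. Whether the libraries of a group came from separate cultures is not stated in the sources used here, and the p-values measure only the spread between these libraries.

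Total counts ranged from 23538963 to 41683825 per library, and these bulk counts cannot tell fewer cells of a type from less RNA per cell. Trem2 RNA was detected in all libraries and was lower in Trem2KO cells without cholesterol (log2 fold change -0.67, s.e. 0.08, edgeR adjusted p = 2.85e-07) and with it (-0.73, s.e. 0.07, adjusted p = 7.08e-08). These counts do not measure Trem2 protein, whose loss the authors checked by flow cytometry. Of 8 macrophage markers 7 reached 5 CPM (counts scaled to library size with TMM factors), and their summed level was 3120 to 3830 CPM in Trem2WT nonfoamy, 3371 to 3831 in Trem2WT foamy, 4470 to 4722 in Trem2KO nonfoamy and 4575 to 4783 in Trem2KO foamy libraries. None of 14 markers of astrocytes, neurons, oligodendrocytes, fibroblasts and T cells reached 5 CPM, 7 of them were at 0 throughout, and their sum stayed between 1.41 and 2.63 CPM. The part of these marker differences in the results was not tested. Among the libraries, Trem2WT nonfoamy 3 had the highest level of its group for 89 of 102 tested members and Trem2WT foamy 1 the lowest for 92. Counts of members called, the lean of the members and some single members are also given without them. Promoter classes and genes of the lists are not, and may depend on them.

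Where the sequence bears on a measurement it is shown first. Several mitochondrial genes have near-identical copies on nuclear chromosome 1, and reads within them match both places. The first 60 bases of mt-Nd3, a complex I gene at position 9459 to 9806 of the mitochondrial genome, and of its copy Gm28438 (chr1:24612775-24613119, minus strand, GRCm38) are shown because counts on mt-Nd3 jumped between libraries. Capitals mark the base that differs, T3C counted from 1 at the first base of the gene.

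mt-Nd3: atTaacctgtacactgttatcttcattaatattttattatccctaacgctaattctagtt
Gm28438: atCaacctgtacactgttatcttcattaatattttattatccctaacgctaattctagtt

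That was the only mismatch in 345 aligned bases. mt-Co2 and its copy Gm28661 (chr1:24614885-24615565, minus strand) had 0 mismatches in 681 bases, mt-Co3 and Gm28437 0 in 783, mt-Atp6 and Gm10925 0 in 678, mt-Nd4l and Gm10222 0 in 294, and mt-Nd4 and Gm28439 0 in 876. mt-Co1 and Gm29216 had 6 mismatches in 492 bases, the last at position 1066 of the gene. Of the stretches of 50 bases in each gene, none in mt-Nd1, mt-Cytb and mt-Nd6, 8.19% in mt-Nd2 and 7.61% in mt-Nd5 occurred elsewhere in the annotated transcripts, against 51.1% in mt-Co1, 62.2% in mt-Nd4 and 98.0% to 100% in the others except mt-Atp8 (0%). How reads with several matches were counted is not given in the sources used here, so levels of the shared genes are uncertain.

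The promoters below belong to the 3 genes of ATP synthase subunit c, which encode the same mature protein with different import sequences and which differed in direction between the genotypes, and to the complex I and supercomplex genes Ndufa12 and Cox7a2l. Each run holds 250 bases before and 50 after the RefSeq start (GRCm38.p6), read on the gene's strand. Capitals mark matches on either strand to CATGCGC (NRF1), CCGGAAG (ETS factors such as GABPA), ATGGCGG (YY1) or GGGCGG (GC box). NRF1, GABPA and YY1 are known activators of nuclear genes for mitochondrial proteins.

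Atp5g1 (chr11:96075582-96075881, minus): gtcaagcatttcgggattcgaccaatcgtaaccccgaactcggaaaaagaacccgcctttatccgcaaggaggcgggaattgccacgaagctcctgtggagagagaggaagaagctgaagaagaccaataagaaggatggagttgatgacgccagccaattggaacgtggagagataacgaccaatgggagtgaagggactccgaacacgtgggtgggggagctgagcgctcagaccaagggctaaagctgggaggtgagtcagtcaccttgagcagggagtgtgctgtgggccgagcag
Atp5g2 (chr15:102670998-102671297, minus): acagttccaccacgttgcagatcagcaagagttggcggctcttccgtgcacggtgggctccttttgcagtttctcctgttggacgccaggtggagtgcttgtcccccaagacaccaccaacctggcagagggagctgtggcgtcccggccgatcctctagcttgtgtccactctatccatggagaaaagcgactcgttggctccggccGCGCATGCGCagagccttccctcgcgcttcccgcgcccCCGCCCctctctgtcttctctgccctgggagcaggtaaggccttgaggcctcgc
Atp5g3 (chr2:73911277-73911576, minus): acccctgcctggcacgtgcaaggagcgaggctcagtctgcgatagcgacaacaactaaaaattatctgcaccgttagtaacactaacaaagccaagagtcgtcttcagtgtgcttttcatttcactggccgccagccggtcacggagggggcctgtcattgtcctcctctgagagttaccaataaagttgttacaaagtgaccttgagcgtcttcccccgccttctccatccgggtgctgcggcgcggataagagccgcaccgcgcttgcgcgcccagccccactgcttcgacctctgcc
Ndufa12 (chr10:94198785-94199084, plus): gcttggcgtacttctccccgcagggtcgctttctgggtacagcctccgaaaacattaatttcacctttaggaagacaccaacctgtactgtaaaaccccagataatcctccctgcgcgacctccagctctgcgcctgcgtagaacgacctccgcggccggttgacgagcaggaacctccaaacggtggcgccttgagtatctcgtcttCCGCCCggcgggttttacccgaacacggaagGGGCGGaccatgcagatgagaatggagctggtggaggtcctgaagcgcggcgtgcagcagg
Cox7a2l (chr17:83514284-83514583, minus): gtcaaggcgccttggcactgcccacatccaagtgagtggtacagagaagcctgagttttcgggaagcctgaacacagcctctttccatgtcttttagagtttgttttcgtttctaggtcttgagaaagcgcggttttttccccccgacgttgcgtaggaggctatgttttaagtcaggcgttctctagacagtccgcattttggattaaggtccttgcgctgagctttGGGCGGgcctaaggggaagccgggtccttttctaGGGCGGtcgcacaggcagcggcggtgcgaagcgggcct

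Of the 97 nuclear members 76 had such windows, 81 in all because some genes have several starts. The NRF1 letters stood in 15 of these 81 windows (18.5%) against 3.91% of all 32851 promoter windows, the ETS letters in 19 (23.5%) against 8.86%, the YY1 letters in 13 (16.0%) against 4.05% and the GC box in 36 (44.4%) against 35.7%. Among the windows of members lower in Trem2KO nonfoamy cells (see the calls given later) 7 of 28 held the NRF1 letters, and among those of members higher there 2 of 8 did, which is 25% in both. Among those of nuclear members tested but not called there, 6 of 42 did (14.3%). For lower, higher and not called members in turn, the ETS letters stood in 17.9%, 12.5% and 31.0% of windows. The YY1 letters stood in 21.4%, 25% and 11.9%, and the GC box in 50%, 50% and 38.1%. The matches describe letters in these windows only. No test was made of them. Matches can overlap, as the NRF1 letters do with their own reverse complement in Atp5g2.

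Levels per length overlapped widely between the complexes and differed in their medians. Levels here are CPM per kilobase of the median annotated transcript, averaged over the 15 libraries. The median subunit reached 133 in complex I, 249 in complex II, 349 in complex III, 456 in complex IV and 413 in complex V, whereas the 8 Ndufaf assembly factors had a median of 18.6. Single subunits ran from 5.97 to 526 in complex I, from 168 to 264 in complex II, from 161 to 846 in complex III, from 1.62 to 1424 in complex IV and from 58.7 to 935 in complex V. The low ends of complexes I and IV were Ndufs6b and Cox6c2, with 39 to 96 and 5 to 27 counts per library. Of their stretches of 50 bases, 25.4% occur also in Ndufs6 and 52.7% in Cox6c, respectively. Tissue and condition isoforms were left out of these medians and ranges. Cox4i1, a nuclear subunit of complex IV that joins early in its assembly, was the highest nuclear member at 1424. The 13 mitochondrial members had a median of 1560 and reached 27397 for mt-Co1, the catalytic subunit of complex IV. The muscle isoforms Cox6a2 and Cox7a1 were low, at 7.04 and 17.8.

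A filter on low counts kept 102 members, 89 nuclear and 13 mitochondrial. Of the 8 left out, the testis, muscle or hypoxia isoforms Cox6b2, Cox7b2, Cox8b, Cox8c and Ndufa4l2 had no read in any library, and Cox4i2 had at most 10, Ndufb4c 5 and Ndufa11b 3. Cox4i2 and Ndufa4l2, the isoforms linked to hypoxia, were thus at or near 0 beside Cox4i1 and Ndufa4.

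The first question was how the members differed between Trem2KO and Trem2WT cells without cholesterol. The edgeR quasi-likelihood test called 40 of 102 members, 9 higher and 31 lower in Trem2KO cells, at an adjusted p under 0.05. Over all 14237 genes tested this comparison called 43.6%, so the number of members called lies near the background of the line. By direction, 31 of 102 members were lower where 22.6% of all genes were, and 9 were higher where 21% of all genes were. The median log2 fold change of the members was -0.12, against 0.02 over all genes. The libraries of the 2 groups did not overlap for 7 members that were higher and 37 that were lower, against 22.6% and 23.5% of all genes (46.1% in all).

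Of the 31 lower members 21 were nuclear genes of complex I, which held 45 of the 102 members tested. Of its 37 tested nuclear subunits 15 were lower and 3 higher (median -0.14), and of the 8 assembly factors 6 were lower and none higher (median -0.50). Across 17 alternatives of processing and left-out libraries, 5 to 8 assembly factors were lower and none was higher, while of the subunits of complex I 13 to 23 were lower and 2 to 9 higher. In the other complexes the directions were mixed: complex II had 1 lower of 4, complex III 2 higher and 2 lower of 8, complex IV 2 higher and 3 lower of 15, and complex V 1 higher and 2 lower of 17. None of the 6 tested subunits of the catalytic head and stalk of the ATP synthase, such as Atp5b, was called.

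**Figure D1:**
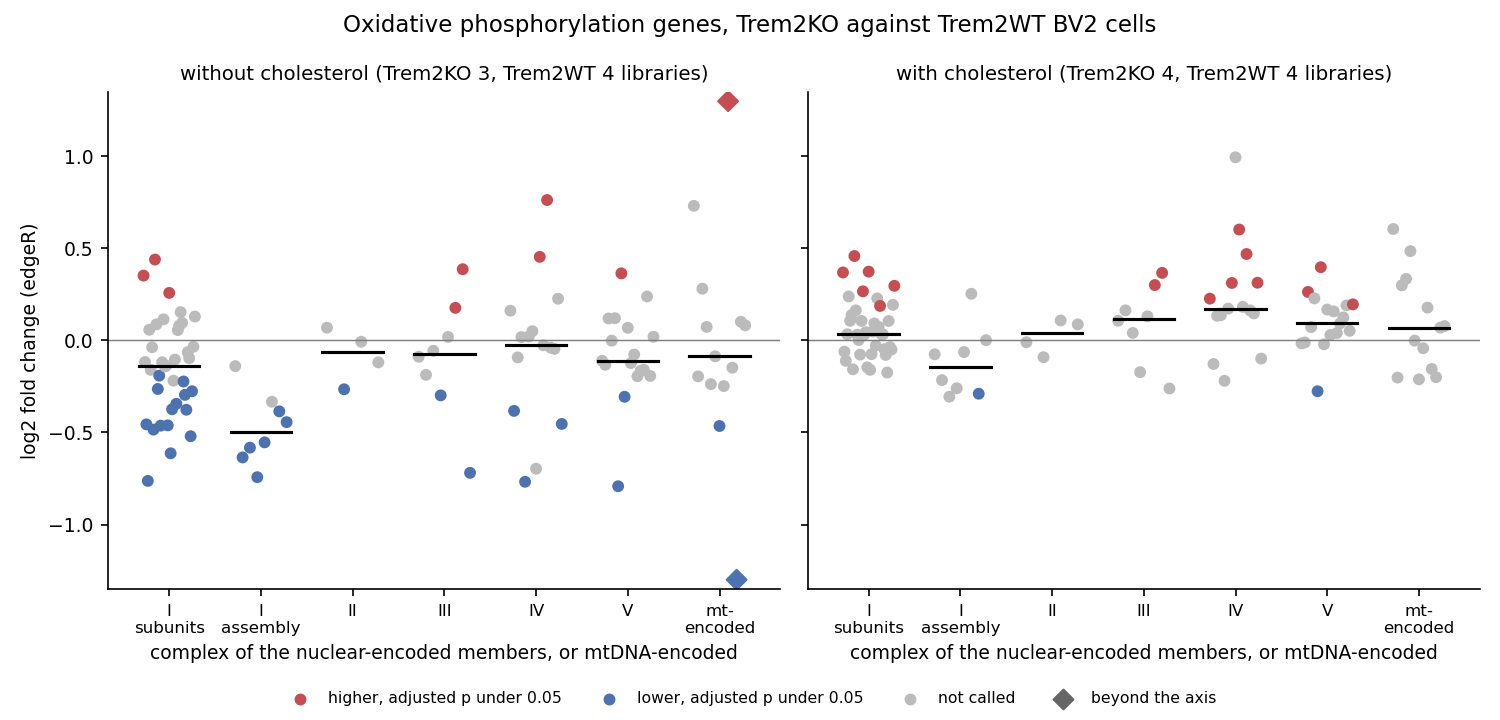
Log2 fold change of each tested member in Trem2KO against Trem2WT cells, by complex, without cholesterol (left) and with cholesterol (right); each point is a gene, black lines are medians, red and blue points passed the edgeR test, and diamonds lie beyond the axis. The 8 assembly factors have a median of -0.50 on the left and -0.15 on the right.

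Ndufa12 encodes an accessory subunit of complex I. Its level was 84.0, 95.1, 109 and 73.3 CPM in Trem2WT nonfoamy libraries and 57.9, 56.9 and 44.7 in Trem2KO nonfoamy libraries. All 3 Trem2KO libraries lay below all 4 Trem2WT libraries, and the log2 fold change was -0.76 (s.e. 0.12, adjusted p = 1.67e-05). Ndufa12, Sdhb, Uqcrq, Cox6a2 and Atp5g1 were picked as the largest called changes of their complexes among genes without overlap. Their lack of overlap in this comparison was thus set by the choice. For Ndufa12 17.7% of the stretches of 50 bases also occur elsewhere, in Gm15920. Ndufb6, an accessory subunit of the membrane arm, had 39.8, 39.8, 48.7 and 41.6 CPM in Trem2WT and 27.2, 29.4 and 26.6 in Trem2KO libraries (log2 fold change -0.61, s.e. 0.09, adjusted p = 9.75e-06). The groups did not overlap, but 39.0% of the exonic bases of Ndufb6 lie under Smim27 on the other strand and the strand setting of the counts is not given in the sources used here. Ndufs8, which holds iron-sulfur clusters of the electron path, had 89.5, 81.0, 113 and 83.6 CPM against 67.6, 59.6 and 64.5 (log2 fold change -0.52, s.e. 0.10, adjusted p = 0.000148). Again every Trem2KO library was lower.

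The assembly factors Ndufaf4 (log2 fold change -0.74, s.e. 0.12, adjusted p = 1.86e-05), Ndufaf2 (-0.64, s.e. 0.12, adjusted p = 0.000103), Ndufaf3 (-0.58, s.e. 0.14, adjusted p = 0.00207), Ndufaf5 (-0.55, s.e. 0.12, adjusted p = 0.000825), Ndufaf8 and Ndufaf7 were lower in Trem2KO nonfoamy cells, while Ndufaf6 (-0.33, adjusted p = 0.0888) and Ndufaf1 (-0.14, adjusted p = 0.168) did not pass. Ndufaf4 stood at 16.9, 14.6, 16.0 and 17.8 CPM in Trem2WT libraries and at 9.63, 11.2 and 8.50 CPM in Trem2KO libraries. The groups were apart by more than the spread within either. For Ndufaf2 65.6% of the exonic bases overlap B230220B15Rik on the other strand. Among the higher members of complex I were Ndufa6 (0.44, s.e. 0.10, adjusted p = 0.00136) and Ndufa1 (0.35, s.e. 0.09, adjusted p = 0.00404), accessory subunits of the hydrophilic and membrane arms.

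In complex II, Sdhb, its iron-sulfur subunit, had 306, 282, 359 and 289 CPM in Trem2WT and 264, 254 and 253 in Trem2KO nonfoamy libraries (log2 fold change -0.27, s.e. 0.08, adjusted p = 0.00853), without overlap. In complex III, Uqcrq, a small subunit, had 195, 200, 285 and 199 CPM against 131, 129 and 140 (log2 fold change -0.72, s.e. 0.11, adjusted p = 1.19e-05). Uqcrh, the hinge protein that docks cytochrome c1, went the other way, with 345, 310, 426 and 323 CPM in Trem2WT and 485, 458 and 434 in Trem2KO libraries (0.39, s.e. 0.10, adjusted p = 0.00331). Both genes separated the groups, in opposite directions within 1 complex.

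Cox7a2l, whose product is linked to supercomplexes of complexes III and IV, showed the largest increase among nuclear members. Supercomplexes were not measured here. Cox7a2l had 388, 386, 497 and 369 CPM in Trem2WT nonfoamy libraries and 704, 705 and 679 in Trem2KO nonfoamy libraries (log2 fold change 0.76, s.e. 0.09, adjusted p = 4.06e-07). Even Trem2WT nonfoamy 3, the highest of its group, lay well below the Trem2KO libraries. Its relative Cox7a2, the common subunit of complex IV, did not differ beyond the spread (-0.03, s.e. 0.10, adjusted p = 0.853), and Ndufa4 was lower (-0.45, s.e. 0.11, adjusted p = 0.00127). For Cox7a2l 13.8% of the stretches of 50 bases also occur elsewhere, in Gm6969. Both muscle isoforms passed the test at low levels: Cox7a1 was higher (6.48, 6.73, 7.04 and 6.25 against 9.57, 8.22 and 9.33 CPM; 0.45, s.e. 0.13, adjusted p = 0.00617) and Cox6a2 lower (4.46, 6.09, 9.19 and 5.46 against 3.50, 3.82 and 3.64 CPM; -0.77, s.e. 0.20, adjusted p = 0.00338).

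The 3 genes of the subunit c ring, which turns within the ATP synthase, all passed the test and split in direction. Atp5g1 had 175, 189, 245 and 179 CPM in Trem2WT nonfoamy libraries and 111, 112 and 117 in Trem2KO nonfoamy libraries (log2 fold change -0.79, s.e. 0.11, adjusted p = 3.02e-06). Atp5g3 had 300, 316, 354 and 323 CPM against 258, 263 and 263 (-0.31, s.e. 0.07, adjusted p = 0.00136). Atp5g2 had 279, 308, 378 and 270 CPM against 398, 398 and 395 (0.36, s.e. 0.09, adjusted p = 0.00265). For each of the 3 genes the groups did not overlap, and the direction and the call held in 17 of 17 alternatives. For Atp5g2 38.3% of the stretches of 50 bases also occur in other genes, among them Gm10175, and for Atp5g1 11.1% do.

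Summed over the 3 genes the level was 829 ± 102 CPM (SD, n = 4) in Trem2WT nonfoamy and 772 ± 4.28 (SD, n = 3) in Trem2KO nonfoamy libraries, with no test made. Atp5g2 took 37.1% ± 1.61 of that sum in Trem2WT nonfoamy, 40.0% ± 0.638 in Trem2WT foamy, 51.4% ± 0.462 in Trem2KO nonfoamy and 48.6% ± 0.306 in Trem2KO foamy libraries. Atp5g1 took 23.7% ± 0.936, 21.6% ± 1.15, 14.7% ± 0.338 and 16.5% ± 0.170 in the same order. The lowest Atp5g2 share in any Trem2KO library, 48.3%, lay above the highest in any Trem2WT library, 40.4%. These shares were computed after the values of the genes were seen and are given as a description.

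**Figure D2:**
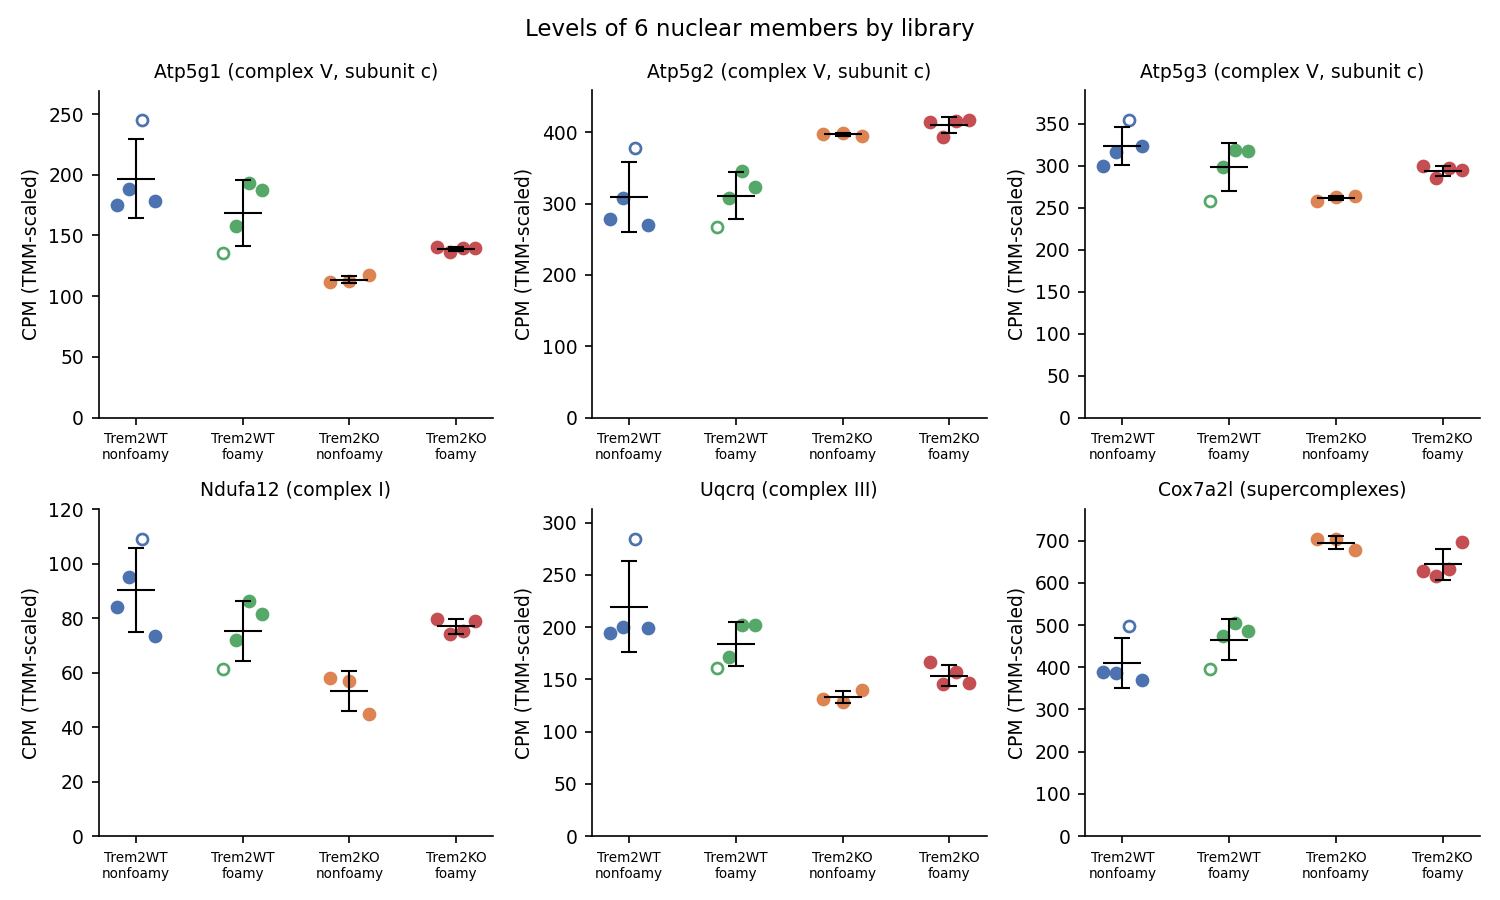
Level of 6 nuclear members in TMM-scaled CPM by library; points are libraries, open circles are Trem2WT nonfoamy 3 and Trem2WT foamy 1, horizontal bars are group means and error bars SD. Atp5g1, Atp5g3, Ndufa12 and Uqcrq are lower and Atp5g2 and Cox7a2l higher in Trem2KO than in Trem2WT nonfoamy libraries.

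The same contrast with cholesterol used other libraries of the same cells. In foamy cells 18 of 102 members were called, 16 higher and 2 lower in Trem2KO, all of them nuclear, where 30.2% of all genes were called, 14.3% higher and 15.9% lower. The median log2 fold change was 0.07 for the members and 0.00 for all genes. Without overlap of the libraries, 17 members were higher and 2 lower, against 13.8% and 15% of all genes (28.8% in all). Cox7a1 (0.60, s.e. 0.12, adjusted p = 0.000485), Cox7a2l (0.47, s.e. 0.08, adjusted p = 0.000189), Ndufa6 (0.46, s.e. 0.10, adjusted p = 0.000878), Atp5g2 (0.40, s.e. 0.09, adjusted p = 0.00116) and Uqcrh (0.37, s.e. 0.09, adjusted p = 0.00471) were higher, each without overlap between the groups. For Cox7a1, Ndufa6, Atp5g2 and Uqcrh the lack of overlap was a condition of picking them in this comparison. Cox4i1, at 884 to 1060 CPM in Trem2WT and 1193, 1144, 1145 and 1161 in Trem2KO foamy libraries, also passed (0.23, s.e. 0.07, adjusted p = 0.0186), but its call was lost in 3 of 18 alternatives: with library sizes alone (0.10), without Trem2WT foamy 1 (0.18) and without Trem2KO foamy 1 (0.21).

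The split of 16 to 2 depended on the scaling and on 1 library. With library sizes alone, which lowers the median of all genes by 0.13 on the log2 scale, it was 10 higher and 21 lower, and with trends on transcript length and GC content removed it was 18 and 12. Transcripts of the nuclear members are short, with a median length of 651 bases against 1845.5 over all genes tested. Leaving out Trem2WT foamy 1, in which most members were low, gave 11 and 6. Without cholesterol, library sizes alone gave 6 higher and 54 lower members (median of all genes -0.13), and leaving out Trem2WT nonfoamy 3, in which many members were high, gave 19 and 28. Across 17 alternatives, removal of the length and GC trends among them, 6 to 20 nuclear members were higher and 25 to 50 lower there.

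Between the contrasts, 10 members were called in both, which is 10 of 40 without (25%) and 10 of 18 with cholesterol (55.6%). Over all genes 3546 were called in both in the same direction, 57.1% of those called without and 82.5% of those called with cholesterol. The difference of these shares was not tested. The 8 higher in both were Atp5g2, Cox7a1, Cox7a2l, Ndufa1, Ndufa6, Ndufb5, Uqcrfs1, the Rieske iron-sulfur protein of complex III, and Uqcrh. The 2 lower in both were Atp5g1 (-0.28 with cholesterol, s.e. 0.10, adjusted p = 0.0373) and Ndufaf7 (-0.29, s.e. 0.08, adjusted p = 0.00517), a methyltransferase for complex I. In foamy cells Atp5g1 ran from 135 to 193 CPM in Trem2WT and from 136 to 140 in Trem2KO libraries, so that Trem2WT foamy 1, at 135, lay just below the Trem2KO libraries and the other 3 above them. Its call was lost in 7 of 18 alternatives, with an adjusted p of up to 0.131.

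Cholesterol loading itself called no member in Trem2WT cells, where 2.8% of all genes were called (1.66% higher, 1.14% lower), and none in Trem2KO cells, where 0.14% were (0.105% higher, 0.0351% lower). At an unadjusted p under 0.05, edgeR found 16 and 10 members, or 15.7% and 9.80% of those tested, against 16.4% and 6.44% of all genes, and DESeq2 called 0 and 1 member at its adjusted p. The members leaned to opposite sides: 85 of 102 had a lower fitted level in foamy Trem2WT cells (median log2 fold change -0.10, against 0.01 over all genes), and 93 of 102 had a higher one in foamy Trem2KO cells (median 0.10, against 0.00). In Trem2WT cells the libraries did not overlap for 4 lower and no higher members, against 5.13% and 4.57% of all genes (9.7% in all), and in Trem2KO cells for 21 higher and no lower members, against 5.38% and 3.88% (9.26% in all). The lean in Trem2WT cells rested on single libraries. Without Trem2WT nonfoamy 3 it was 54 of 102, without Trem2WT foamy 1 it was 66, and without both it turned, to 33 of 102 with a lower level.

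**Figure D3:**
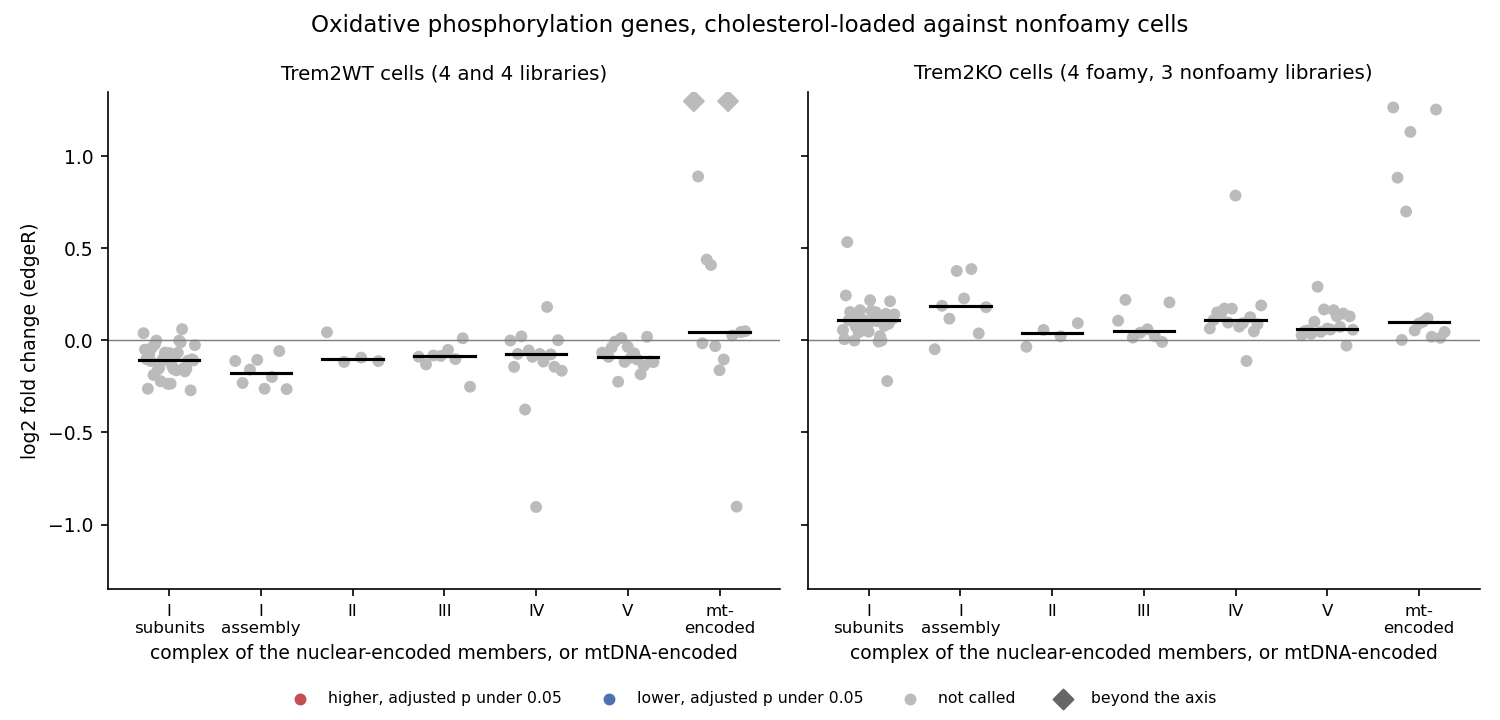
Log2 fold change of each tested member in foamy against nonfoamy cells, by complex, in Trem2WT (left) and Trem2KO cells (right); each point is a gene, black lines are medians, and diamonds lie beyond the axis. No point passed the test, and the complex I subunits have a median of -0.11 on the left and 0.11 on the right.

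The test of the difference between both responses called 4 of 102 members, where 3.63% of all genes were called (1.99% higher, 1.64% lower). In all 4 the response was more positive in Trem2KO cells. At an unadjusted p under 0.05, edgeR found 30 of 102 members (29.4%), against 17.3% of all genes. The fitted difference was positive for 89 of 102 members (median 0.19) and for 7059 of 14237 genes (median -0.00). The lean in Trem2WT cells, which enters this difference, rested on single libraries, as given above. For Ndufa12 the fitted difference was 0.80 (s.e. 0.16, adjusted p = 0.00707). Foamy Trem2WT libraries had 61.4, 71.8, 86.4 and 81.4 CPM and foamy Trem2KO libraries 79.5, 74.1, 75.3 and 79.0, so that the gap between the genotypes seen without cholesterol was not present with it (0.03, s.e. 0.11, adjusted p = 0.852). Its call held in 24 of 24 alternatives. Ndufb6 (0.45, s.e. 0.12, adjusted p = 0.0428), Ndufs8 (0.48, s.e. 0.13, adjusted p = 0.0430) and Atp5g1 (0.52, s.e. 0.15, adjusted p = 0.0497) were close to the threshold and lost the call in 13, 10 and 11 alternatives.

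The 13 mitochondrial members made up 6.75% ± 0.640 of all counts in Trem2WT nonfoamy (SD, n = 4), 6.63% ± 0.813 in Trem2WT foamy (n = 4), 6.70% ± 0.375 in Trem2KO nonfoamy (n = 3) and 6.85% ± 0.704 in Trem2KO foamy libraries (n = 4). All groups overlapped in this share, to which mt-Co1 contributed most. The 2-sided exact permutation test gave p from 0.629 for genotype with cholesterol to 0.971 for genotype without it, with both responses to cholesterol in between, each 0.971 after Benjamini-Hochberg adjustment over the 4 comparisons. The smallest p possible was 0.0571 where a group had 3 libraries and 0.0286 otherwise. Over mt-Nd1, mt-Nd2, mt-Nd5, mt-Nd6 and mt-Cytb alone, which share little sequence with copies (mt-Atp8, which overlaps mt-Atp6, was left out), the picture without cholesterol differed: they took 2.26% to 2.85% of counts in Trem2WT and 1.90% to 2.11% in Trem2KO nonfoamy libraries, without overlap (difference -0.449 percentage points, exact permutation p = 0.0571, the smallest possible). In foamy libraries the same genes took 2.05% to 2.72% and 1.89% to 2.37%, with overlap. This choice of genes was made after seeing the data. These are shares of raw counts, without TMM factors, and the summed level of these genes after TMM scaling was not examined. With TMM scaling the genes differed in direction without cholesterol. The log2 fold changes were -0.46 for mt-Nd1, which alone of them was called, -0.25 for mt-Nd2 and -0.09 for mt-Cytb. For mt-Nd5 and mt-Nd6 they were 0.10 and 0.08. The 97 nuclear members together took 1.81% to 2.02% of counts in Trem2WT nonfoamy and 1.67% to 1.70% in Trem2KO nonfoamy libraries, without overlap, and 1.68% to 1.84% and 1.77% to 1.81% in the foamy ones. After TMM scaling the summed nuclear level overlapped without cholesterol, at 16861 to 20915 CPM in Trem2WT and 17613 to 18035 in Trem2KO libraries. In foamy libraries the sum was 15152 to 18440 CPM in Trem2WT and 18134 to 19263 in Trem2KO, with overlap. Within Trem2KO cells the foamy sums lay above the nonfoamy ones (exact permutation p = 0.0571, the smallest possible, 0.114 after adjustment over the 4 comparisons). The TMM factors were 0.918 to 0.983 in Trem2KO libraries and 0.966 to 1.11 in Trem2WT libraries, where Trem2WT nonfoamy 3 alone lay inside the Trem2KO range, and the part of this scaling in the totals was not tested.

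Within the mitochondrial genome the genes differed in pattern. mt-Nd1, a core membrane subunit of complex I and the first protein gene after the ribosomal RNAs, had 6624, 6275, 8728 and 6844 CPM in Trem2WT nonfoamy and 5335, 5413 and 4722 in Trem2KO nonfoamy libraries (log2 fold change -0.46, s.e. 0.13, edgeR adjusted p = 0.00569). All Trem2KO libraries were below all Trem2WT libraries, and the call held in 17 of 17 alternatives. mt-Co1 had 35997, 35751, 47177 and 35230 CPM against 47330, 49768 and 43429 (0.28, s.e. 0.12, adjusted p = 0.0718), and Trem2WT nonfoamy 3 lay inside the Trem2KO range. With cholesterol mt-Nd1 gave -0.21 (s.e. 0.12, adjusted p = 0.196) and mt-Co1 0.30 (s.e. 0.12, adjusted p = 0.0541).

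The ratio of mt-Nd1 to mt-Co1 counts, which needs no scaling between libraries, was 0.176 to 0.194 in Trem2WT nonfoamy, 0.157 to 0.175 in Trem2WT foamy, 0.109 to 0.113 in Trem2KO nonfoamy and 0.110 to 0.125 in Trem2KO foamy libraries. The highest Trem2KO ratio lay below the lowest Trem2WT ratio. Trem2WT nonfoamy 3 did not stand apart in this ratio. The ribosomal RNAs mt-Rnr1 and mt-Rnr2, which are no members, took 0.195% to 0.262% of counts in Trem2WT and 0.287% to 0.369% in Trem2KO libraries. Both measures were chosen after their values were seen and are given as a description.

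**Figure D4:**
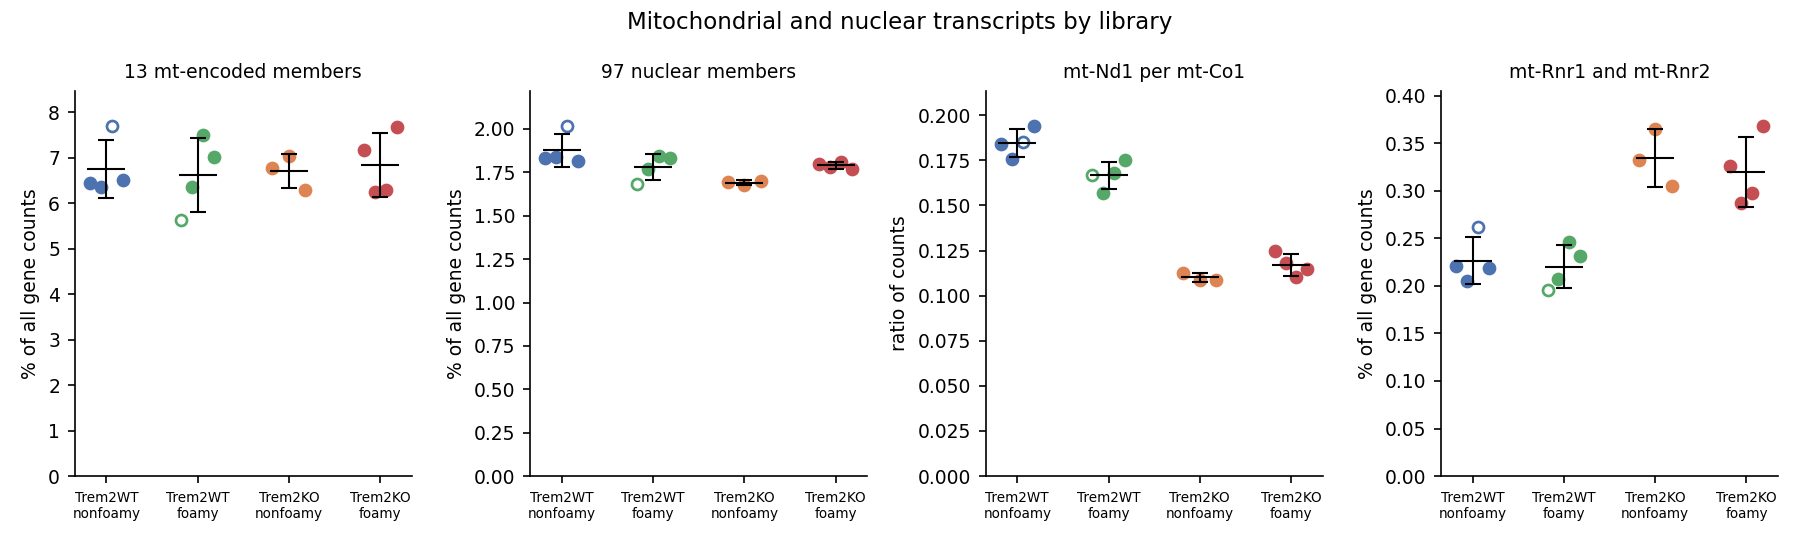
Percent of all gene counts on the 13 mitochondrial and the 97 nuclear members, the ratio of mt-Nd1 to mt-Co1 counts, and the percent of counts on mt-Rnr1 and mt-Rnr2, by library; open circles are Trem2WT nonfoamy 3 and Trem2WT foamy 1, bars are means with SD. The mitochondrial share overlaps between all groups, while the ratio is at most 0.125 in Trem2KO and at least 0.157 in Trem2WT libraries.

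mt-Cytb, the mitochondrial subunit of complex III, had 6629 to 9296 CPM in Trem2WT and 6420 to 8636 in Trem2KO libraries, and its log2 fold changes between the genotypes were -0.09 (s.e. 0.13) without and -0.00 (s.e. 0.12) with cholesterol. mt-Nd6, the only protein gene on the other strand, had 906 to 1346 CPM in Trem2WT and 964 to 1330 in Trem2KO libraries (0.08, s.e. 0.13, and 0.08, s.e. 0.12). mt-Nd2 gave -0.25 (s.e. 0.13, adjusted p = 0.125) without cholesterol. Neither mt-Cytb, mt-Nd6 nor mt-Nd2 passed a test in any comparison.

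The calls for mt-Nd3 and mt-Nd4l rested on 1 library each. mt-Nd3 had 93.9 CPM in Trem2KO nonfoamy 3, 121 in Trem2WT foamy 3 and 135 in Trem2KO foamy 1, and 0.483 to 1.57 in the other libraries, with no relation to the groups. It was called higher in Trem2KO nonfoamy cells (4.96, s.e. 1.98, adjusted p = 0.0468), and without Trem2KO nonfoamy 3 the fold change was -0.26 (adjusted p = 0.957). In that library 2837 reads were counted on mt-Nd3 and 45 on Gm28438, against 40 and 34 in Trem2WT nonfoamy 1. mt-Nd4l, also a complex I gene, had 25.0 CPM in Trem2WT nonfoamy 1 and at most 6.67 elsewhere, and its fold change of -2.36 (s.e. 0.73, adjusted p = 0.0116) became -0.54 (adjusted p = 0.362) without that library.

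mt-Co2 and mt-Atp6, which encode a copper-binding subunit of complex IV and the proton channel of complex V, were far below mt-Co1. mt-Atp6 ran from 15.5 to 326 CPM with wide spread in every group (51.4 ± 42.3 in Trem2WT nonfoamy, SD, n = 4). Counts on mt-Co2 exceeded those on its nuclear copy in all 15 libraries, from 3614 against 2872 in Trem2WT nonfoamy 1 to 10114 against 2165 in Trem2KO foamy 4. The part of read sharing in these levels was not tested.

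**Figure D5:**
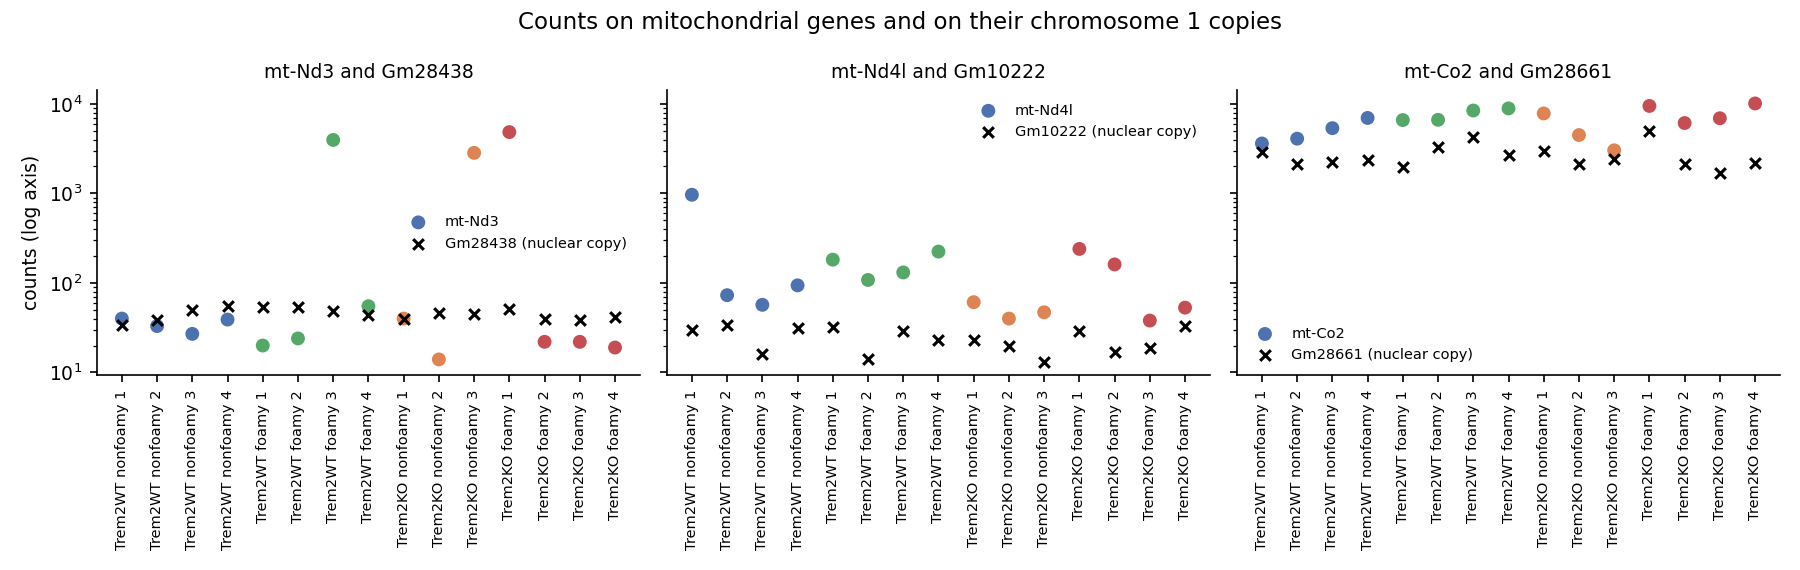
Counts on mt-Nd3, mt-Nd4l and mt-Co2 (colored points) and on their chromosome 1 copies (crosses) in each of the 15 libraries, on a log axis. mt-Nd3 is high in 3 libraries of different groups while Gm28438 stays between 34 and 55 counts.

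Other genes of the mitochondrial energy pathway were taken from lists outside the members. Without cholesterol, electron carriers and ubiquinone synthesis had 4 higher and 11 lower of 20 tested genes, assembly factors outside the Ndufaf family 4 and 16 of 38, the TCA cycle 1 and 8 of 19, maintenance and transcription of mitochondrial DNA 4 and 8 of 23, import and outer membrane 2 and 7 of 17, nuclear regulators 0 and 3 of 9, and ATP export with the ATPase inhibitor 1 and 2 of 5. All genes were called at 21% higher and 22.6% lower in that comparison (43.6% in all). In all, the shares called of the TCA cycle, import and outer membrane, mitochondrial DNA and assembly factor lists lay near that background. By direction, each list had more lower than higher calls. No list was tested against the background. The medians of the lists ran from -0.49 for the electron carriers to 0.08 for ATP export. With cholesterol the counts were, in the same order, 2 and 8, 5 and 7, 3 and 5, 4 and 2, 3 and 1, 1 and 1, and 1 and 1, against 14.3% higher and 15.9% lower over all genes.

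Coq3, a methyltransferase of ubiquinone synthesis, was the lowest of the carrier list, with 16.2 ± 1.08 CPM in Trem2WT and 5.07 ± 0.471 in Trem2KO nonfoamy libraries (-1.67, s.e. 0.12, adjusted p = 2.5e-10), and stayed lower with cholesterol (-1.13, s.e. 0.11, adjusted p = 4.73e-08). Cycs, cytochrome c itself, was chosen after its values were seen: its log2 fold change was -1.51 without cholesterol (s.e. 0.11, adjusted p = 1.75e-10), -0.66 with it (s.e. 0.09, adjusted p = 1.23e-05) and -0.50 in Trem2WT cells after cholesterol (s.e. 0.09, adjusted p = 0.00397). The largest increases in this list were Coq8a (0.57, adjusted p = 0.000489) without and Etfdh (0.36, adjusted p = 4.81e-05) with cholesterol. Among assembly factors of complex IV, Surf1 was higher (0.50 and 0.51) and Cox18 (-1.06, adjusted p = 1.22e-05) and Coa3 (-0.77, adjusted p = 4.80e-07 with cholesterol) were lower.

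Slc25a5, which exports ATP from the matrix, had 876 ± 72.6 CPM in Trem2WT and 504 ± 1.38 in Trem2KO nonfoamy libraries (-0.80, s.e. 0.08, adjusted p = 3.49e-08) and was lower with cholesterol too (-0.32, adjusted p = 0.00180). Its relative Slc25a4 was higher with cholesterol (0.27, adjusted p = 0.00244), and the phosphate carrier Slc25a3 without it (0.17, adjusted p = 0.0348). In the TCA cycle the subunits of 1 enzyme split: Idh3a was lower (-0.73, s.e. 0.06, adjusted p = 5.34e-09) and Idh3b higher (0.45, s.e. 0.07, adjusted p = 7.04e-06) without cholesterol, and Pcx was the lowest with it (-0.53, adjusted p = 0.00599). Of the regulators, Pprc1 (-0.47, adjusted p = 0.00353) and Nrf1 (-0.28 and -0.23, adjusted p = 0.0108 and 0.0297) were lower, and Esrra was higher with cholesterol (0.35, adjusted p = 0.00201). Elac2, which trims mitochondrial tRNAs, was lower in both (-0.62 and -0.41), and Ssbp1 (0.47, adjusted p = 0.000155) and Mterf4 (0.44, adjusted p = 8.99e-05 with cholesterol) were higher. In the list of import and outer membrane genes, Tomm40 (-0.63, adjusted p = 3.85e-05) and Timm50 (-0.23 with cholesterol, adjusted p = 0.00741) were lower. Mfn1 (0.21, adjusted p = 0.0265) and Vdac2 (0.30 with cholesterol, adjusted p = 0.00110) of that list were higher.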

How the data were processed

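RNA from BV2 cells was sequenced from TruSeq libraries. The authors' pipeline ran Trimmomatic, HISAT2 (GRCm38) and featureCounts, and raw counts per gene were deposited in 1 table per library. Groups follow the labels. The 15 libraries were fitted together with edgeR 4.0.16 in R 4.3.3 (glmQLFit and glmQLFTest, 1 mean per group, TMM factors, filterByExpr with a minimum count of 10), which left 14237 genes. A gene was called at a Benjamini-Hochberg adjusted p under 0.05 over all genes tested. The s.e. is the absolute log2 fold change divided by the square root of the F statistic of its test. Shares of counts were compared with 2-sided exact permutation tests. DESeq2 1.42.0, other scalings and filters, a replicate block and left-out libraries were alternatives. Replicates differed by more than counting noise. All samples and genes in the tables entered the shares of counts.

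Members, lists and tests were chosen with earlier results of these data known. Members described in every library were, per complex and genotype comparison, the called nuclear gene with the largest change without overlap and a mean of at least 1 CPM, isoform genes, members called in the difference of responses and 5 mitochondrial genes, of list genes the largest rise and fall. Lists came from general knowledge. Ndufaf4, mt-Nd3 and mt-Nd4l were described by library after their values were seen. Promoters are RefSeq GRCm38.p6, gene models and transcripts GENCODE M21 (GRCm38). Same-numbered libraries did not deviate together (correlations -0.105 to 0.143 over 21 pairs), so replicate numbers were not used to pair samples. Amino acid sequences are not analysed here.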

Additional observations from a re-analysis of the deposited data

Results flagged for a closer look

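In groups of 4 libraries, 1 library lay far from the other 3 by Dixon's criterion in 18 of 93 groups of values examined; chance gives about 1 in 20, and the values share libraries. Trem2WT nonfoamy 3, the library with the fewest counts, was the high one for Cox7a2 (278 CPM), Cox7a2l (497 CPM), Ndufa6 (220 CPM), Uqcrq (285 CPM), mt-Co1 (47177 CPM), mt-Nd5 (6349 CPM), mt-Nd6 (1334 CPM), the mitochondrial share (7.71% of counts) and the nuclear share (2.02%). Trem2WT nonfoamy 1 was high for mt-Nd4l (25.0 CPM), Trem2WT nonfoamy 2 for mt-Co3 (204 CPM) and Trem2WT nonfoamy 4 for mt-Atp6 (114 CPM). Trem2WT foamy 1 was low for Ndufb6 (31.4 CPM), and Trem2WT foamy 3 was high for mt-Nd3 (121 CPM). Trem2KO foamy 1 was high for mt-Nd3 (135 CPM) and mt-Co3 (458 CPM), and Trem2KO foamy 2 was low for Atp5g2 (393 CPM) and Ndufs8 (70.0 CPM).

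The response to cholesterol differed between the genotypes, by the edgeR test of the difference itself, for Ndufa12 (0.80 on the log2 scale), Atp5g1 (0.52), Ndufs8 (0.48) and Ndufb6 (0.45). These are 4 of 102 members, where 3.63% of all genes were called, and the calls of Ndufb6, Ndufs8 and Atp5g1 were lost in 13, 10 and 11 of 24 alternatives.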

How the results depend on the processing

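Of 28 calls of named members, 21 held their direction and call in every alternative run, and the log2 fold change of mt-Nd3 turned to -0.26 without Trem2KO nonfoamy 3 and ran up to 5.53 without another library. Counts of members called changed as follows. With cholesterol against none, total counts alone gave 1 member in Trem2WT and 1 in Trem2KO, no filter 9 and 7, length and GC trends removed 2 and 1, and leaving out both Trem2WT nonfoamy 3 and Trem2WT foamy 1 gave 5 and 2; only the groups compared gave 2 and DESeq2 1 in Trem2KO. For genotype in foamy cells these gave 31 (total counts), 29 (no filter), 30 (trends removed) and 30 (both libraries out) in place of 18. For the difference of responses no filter gave 12, DESeq2 8, trends removed 15 and the replicate block 2 in place of 4; the block moved no other count of calls by over 1.5 times. Leaving out 1 library gave 0 to 1, 0, 34 to 47, 15 to 21 and 1 to 4 members in the order Trem2WT response, Trem2KO response, genotype without, genotype with cholesterol, difference.

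The difference in mitochondrial share, in percentage points, turned in sign when taken over all members' counts (0.481 for the Trem2WT response, -0.654 for the Trem2KO response, 1.61 for genotype without cholesterol), as summed CPM (5687 CPM higher in Trem2KO without cholesterol) and over genes with little sharing (-0.259 for genotype with cholesterol); over those genes it was -0.449 for genotype without cholesterol. Without 1 library it ran from -0.417 to 0.208, -0.131 to 0.352, -0.222 to 0.265 and -0.114 to 0.512. No alternative brought it past the threshold, which groups of 3 against 4 could not reach. The added alternatives (length and GC trends, both libraries out, little sharing) were chosen after seeing the data. With 3 or 4 libraries a group, small changes of members may go uncalled.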
